A study of Homo sapiens with 4 samples.

Results

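A set of 10 genes of melanocyte identity and pigment was followed through a map of CTCF binding: MITF, SOX10, EDNRB, MC1R, TYR, TYRP1, DCT, PMEL, MLANA and OCA2. They were chosen by name, as 10 of the 19821 protein-coding genes annotated on chromosomes 1 to 22 and X, and all 10 were found in the annotation. Each gene was taken whole with 200 kb on each side (hg38), and its CTCF peaks were sorted into peaks within 1 kb of an end, peaks inside the gene and the nearest peak beyond each end, called the flanking peaks. The series held 2 samples of mitotic cells, arrested with thymidine and then nocodazole, collected by shake-off and probed with an antibody against pT431 CTCF, and 2 samples of asynchronous cells, which have no treatment listed and were probed with a rabbit antibody against CTCF. All values below come from 1 library, asynchronous replicate 1. The other 3 samples were not analysed here, so mitotic and asynchronous cells are not compared. All samples were MDA-MB-435 cells, an established melanoma line, so the values describe 1 tumour cell line and not normal melanocytes. The peak list carries no expression values, so whether the line expresses these genes was not measured.

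CTCF is a zinc finger protein that stops cohesin as it extrudes chromatin loops, so pairs of CTCF sites often mark the ends of loops and domains, and sites near a gene can border the stretch in which its enhancers act. Melanocytes arise from the neural crest. In them the transcription factors SOX10 and PAX3 act on MITF, which in turn switches on the enzymes and structural proteins of the melanosome, the organelle in which melanin is made.

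The library held 19210460 tags and gave 42388 peaks on these chromosomes. Peak strength is the authors' tag count per peak scaled to 10000000 tags, written below as normalised tags, with a Poisson 95% interval that covers counting error only. The interval was computed on tag counts recovered from the rounded scaled values. These counts are not whole numbers, so the interval is approximate. The median peak held 20 normalised tags. Local background is the strength divided by the authors' fold over the surrounding 10 kb, and its median over all peaks was 1.47 normalised tags. With 1 library there is no replicate spread, so no difference below was tested, and counts of the 10 genes are set beside the same share over all protein-coding genes.

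Together the 10 loci held 104 CTCF peaks, of which 16 lay inside the genes, 20 flanked them and 68 lay farther out. A peak within 1 kb of an annotated end was found at 1 of the 10 genes, DCT, against 28.4% of all protein-coding genes. A peak inside the gene was found at 7 of the 10, against 49.3% of all protein-coding genes. EDNRB, MC1R and TYR held none. The 10 genes had a median length of 49.9 kb, against 24.5 kb for all protein-coding genes, with 5 above that median and 5 below it. Longer genes more often held a peak. Of all protein-coding genes the share with a peak inside was 17.8% under 10 kb, the class of MC1R, and 40.9% from 10 to 30 kb, the class of SOX10, PMEL, TYRP1 and MLANA, which all held a peak. It was 64.4% from 30 to 100 kb, the class of EDNRB, 88% from 100 to 300 kb, the class of TYR, DCT and MITF, and 98.3% over 300 kb, the class of OCA2.

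The rule of 1 kb separated peaks that lay close to it. The DCT peak that met it lay 333 bp from an end. A peak at the opposite end of DCT lay 1036 bp away and the nearest peak of SOX10 1508 bp away, both just outside it. Within 500 bp the count was again 1 of 10, against 20.6% of all protein-coding genes. Within 5 kb it was 5 of 10, namely SOX10, DCT, PMEL, MLANA and OCA2, against 53.2%. Taking only the end with the start, for the 8 genes whose strand is listed, it was 1 of 8, against 24.2%.

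**Figure D1:**
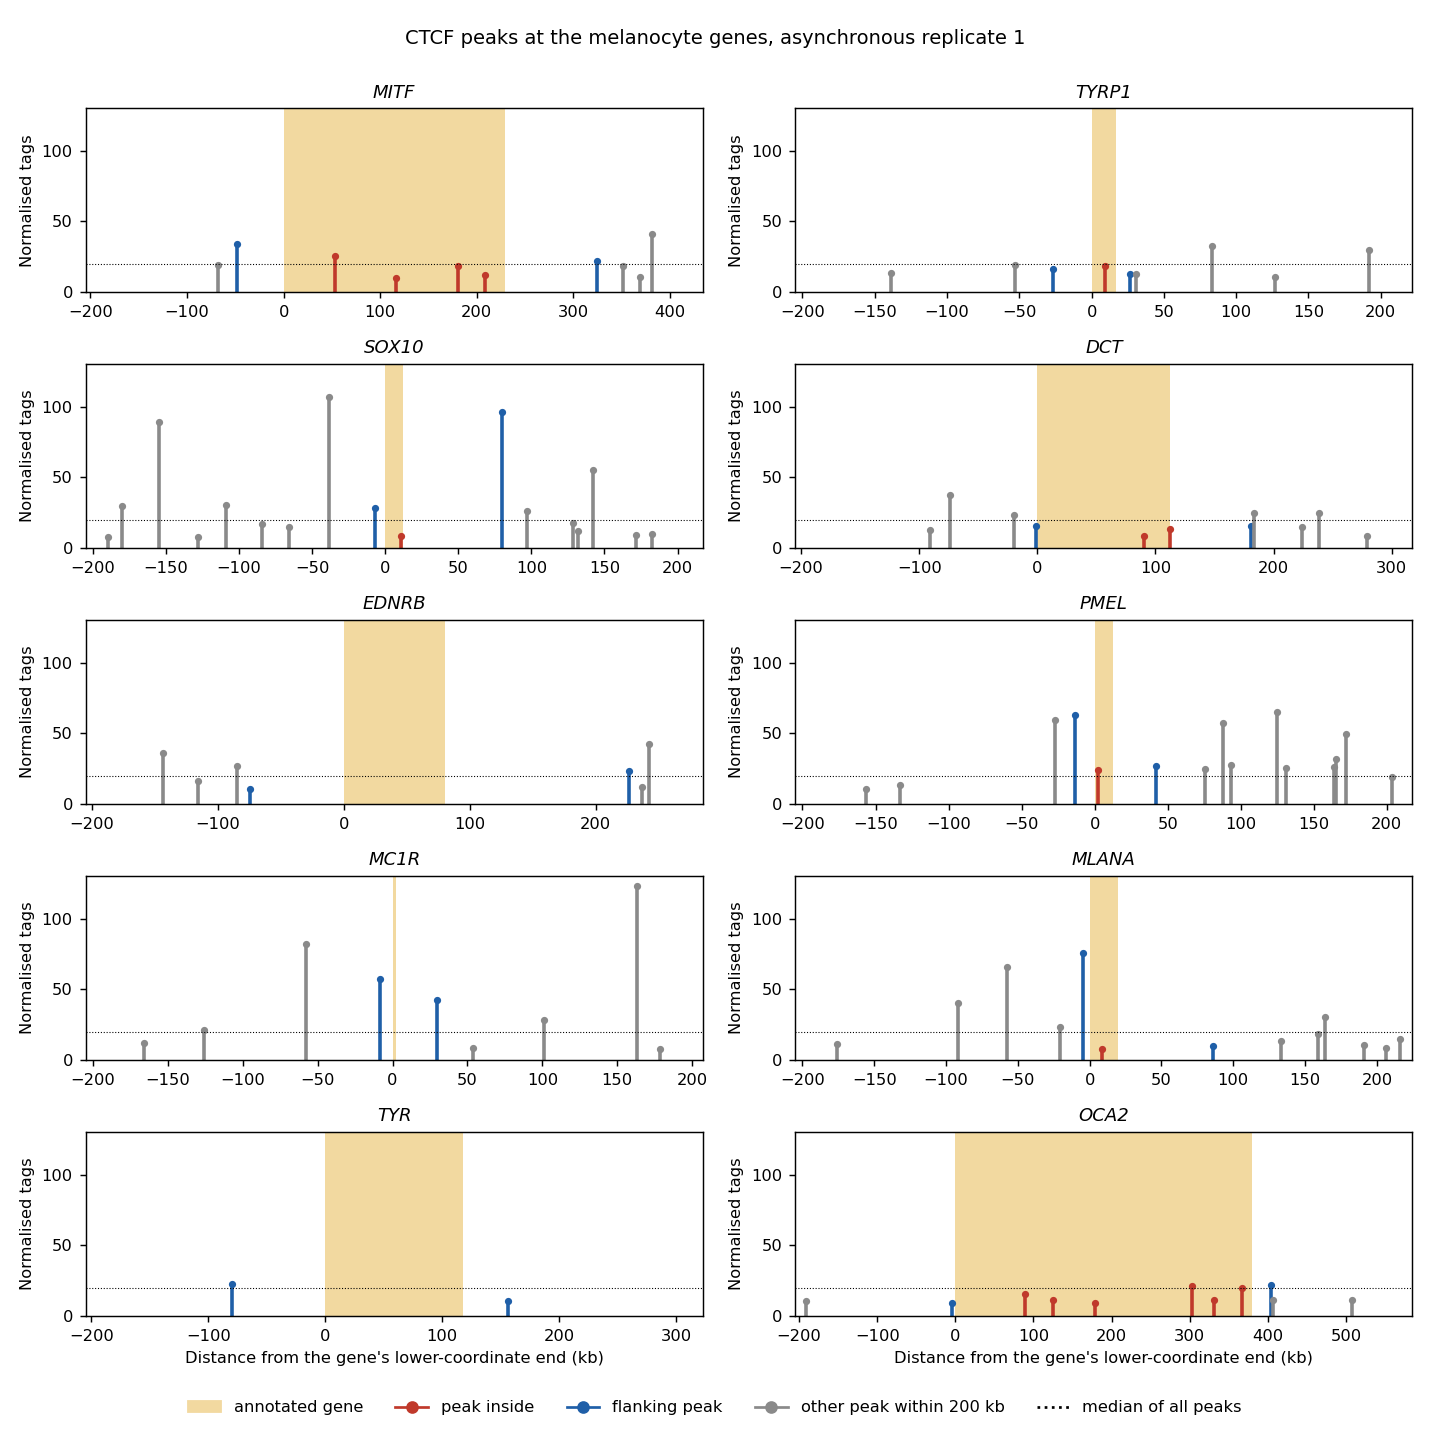
CTCF peaks at the 10 loci. Each panel shows 1 gene (shaded) with 200 kb on each side. The x axis is the distance from the lower-coordinate end of the gene in kb and the height of each line is the peak's normalised tags. The dotted line is the median of all peaks, 20 normalised tags. The loci of SOX10, MC1R, PMEL and MLANA hold the tallest peaks, and no peak stands inside EDNRB, MC1R or TYR.

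MITF, the basic helix-loop-helix factor that directs the melanocyte programme, lay in a wide interval with several weak or moderate peaks inside. The gene spans 229 kb (chromosome 3, 69739464 to 69968332). Its flanking peaks lay 48.2 kb below the lower end and 96.04 kb above the higher end, 373 kb apart, which was longer than at 90.3% of protein-coding genes. Much of that distance is the gene itself. With its length taken off, the distance was 144 kb, at percentile 81.0. The longest stretch without a peak between the flanking peaks was 116 kb. The flanking peaks held 34.1 normalised tags (26.3 to 43.4) on the lower side and 21.9 (15.8 to 29.6) on the higher side, and these intervals overlapped. The peak on the higher side lay in SAMMSON, a long noncoding RNA gene beside MITF that is known from melanoma. The 4 peaks inside held 25.2 (18.6 to 33.4), 9.89 (5.95 to 15.4), 18.2 (12.7 to 25.3) and 12.2 (7.77 to 18.2) normalised tags, in order of position. Their local background had a median of 1.02 normalised tags, against 1.58 and 1.70 at the flanking peaks.

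MITF has several promoters that give proteins with different first exons, and the RefSeq table listed 3 starts for it. The promoter farthest downstream, at position 69936592, makes the melanocyte form MITF-M. It lay between a pair of inside peaks. The upstream peak was 16.4 kb away with 18.2 normalised tags, and the downstream peak was 11.9 kb away with 12.2, so that 28.3 kb separated them. The starts at 69739464 and 69763811, which serve longer forms of the protein, both lay in a single peak-free stretch of 101 kb. Their nearest peaks were 48.2 kb and 28.5 kb away. The melanocyte start was therefore the closest of the 3 to a called peak, though still outside the 1 kb window. This order rests on peaks below the median score of 39, as the pair beside it scored 37.5 and 25. With peaks of at least the median score alone, MITF kept 1 peak inside, that of 25.2 normalised tags. The melanocyte start was then the farthest of the 3 from a peak. The 250 bases before it (chr3:69936342-69936591, plus strand, GRCh38.p14, RefSeq) are shown because this is the start used in melanocytes. The capitals mark a cAMP response element, the palindrome TGACGTCA, through which melanocortin signalling is known to act on MITF.
MITF melanocyte start: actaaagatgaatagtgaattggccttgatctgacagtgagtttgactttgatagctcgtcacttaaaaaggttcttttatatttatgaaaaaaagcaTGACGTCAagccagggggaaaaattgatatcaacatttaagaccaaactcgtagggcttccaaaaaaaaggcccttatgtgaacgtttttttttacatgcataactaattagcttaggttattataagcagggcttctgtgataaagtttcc
The element began 152 bases before the start. It was looked for after the sequence had been seen, and it occurs in 1.85% of the 35116 promoter windows of 300 bases in the table.

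**Figure D2:**
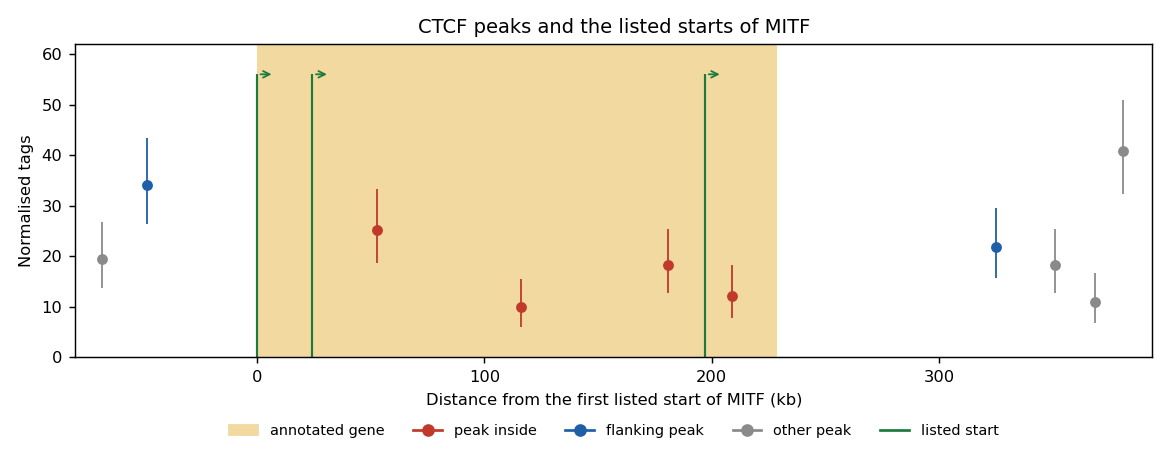
CTCF peaks around MITF. Points are normalised tags with 95% Poisson intervals (y axis) against the distance in kb from the first listed start (x axis), the shaded band is the annotated gene, and green lines with arrows are the 3 listed starts. The start farthest right, that of MITF-M, lies between the inside peaks of 18.2 and 12.2 normalised tags.

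SOX10, the neural crest factor upstream of MITF, lay in the locus with the most CTCF peaks of the 10 when all called peaks are counted. The gene spans 12.2 kb (chromosome 22, 37972312 to 37984555) and overlaps POLR2F, which encodes a shared RNA polymerase subunit. A weak peak of 8.85 normalised tags (5.16 to 14.2) lay inside SOX10 and POLR2F alike, so it cannot be given to either gene alone. The flanking peaks held 28.4 (21.4 to 37.01) on the lower side, 7.01 kb away and inside POLR2F, and 96.3 (82.9 to 111) on the higher side, 67.9 kb away. The higher side was thus the stronger one, with intervals that did not overlap. The flanking peaks were 87.2 kb apart. The window held 17 peaks, 4.12 per 100 kb (95% Poisson interval 2.40 to 6.60), against a median of 2.20 over all protein-coding genes. With peaks of at least the median score alone the SOX10 window held 8 and the PMEL window 12, and without peaks scoring under 17.5 both held 15. The strongest peak at SOX10, with 107 normalised tags, lay 38.2 kb below SOX10 inside MICALL1, and another of 89.5 lay 155 kb below it.

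The receptor genes differed in their intervals, which were wide and without a peak at EDNRB and short at MC1R. EDNRB encodes the endothelin receptor B, through which endothelins guide melanoblasts. It spans 80.04 kb (chromosome 13, 77895487 to 77975527) and held no peak inside. Its flanking peaks were 301 kb apart with no peak between them. They held 10.4 normalised tags (6.35 to 16.07) 74.6 kb below the gene and 23.4 (17.07 to 31.3) 146 kb above it, so the higher side was the stronger. Of all 42365 gaps between neighbouring peaks, 1209 (2.85%) were at least this long. On chromosome 13 there were 53 such gaps among 1133. Of all protein-coding genes, 5.12% held no peak and had flanking peaks at least this far apart. No other protein-coding gene lay whole or in part between the flanking peaks of EDNRB, only the noncoding genes EDNRB-AS1, LINC01069, LINC00446 and OBI1-AS1 and the pseudogene RN7SL810P. The listed starts of EDNRB were 97.9 and 98.8 kb from the nearest peak.

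MC1R, the receptor for melanocyte-stimulating hormone, which raises cAMP and favours dark pigment, had the shortest interval of the 10. The gene spans 2.11 kb (chromosome 16, 89918862 to 89920972). Its flanking peaks, both well above the median strength, held 57.5 normalised tags (47.3 to 69.3) 8.39 kb below the gene and 42.7 (34.0 to 53.0) 27.7 kb above it. They were 38.2 kb apart, and 15.3% of protein-coding genes had an interval this short or shorter. Both also lay at the ends of neighbouring genes. The lower one was 907 bp from an end of TCF25 and the higher one 68 bp from an end of DEF8. TUBB3, a tubulin gene, and the protein-coding gene LOC124903759 lay whole between the same pair of peaks, and TCF25 in part. The strongest peak of all 10 loci, with 123.1 normalised tags (108 to 139.8), lay 161 kb above MC1R.

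TYR, TYRP1 and DCT encode the related enzymes of melanin synthesis. Tyrosinase (TYR) catalyses the rate-limiting first step, and TYRP1 and dopachrome tautomerase (DCT) act later on the way to eumelanin. Their starts are shown here because MITF is known to act on such genes through the M-box, searched here as its core TCATGTG, and because the CTCF peaks lay at different distances from them. The capitals mark the M-box on either strand (CACATGA is the same motif on the opposite strand). Each sequence is the 250 bases before a listed start (RefSeq, GRCh38.p14), read on the strand of the gene.
TYR (chr11:89177625-89177874, plus strand): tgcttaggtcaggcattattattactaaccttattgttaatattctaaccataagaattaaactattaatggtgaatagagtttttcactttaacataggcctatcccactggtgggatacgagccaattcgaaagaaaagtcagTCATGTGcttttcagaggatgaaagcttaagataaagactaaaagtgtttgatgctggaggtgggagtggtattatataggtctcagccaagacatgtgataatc
TYRP1 (chr9:12693135-12693384, plus strand): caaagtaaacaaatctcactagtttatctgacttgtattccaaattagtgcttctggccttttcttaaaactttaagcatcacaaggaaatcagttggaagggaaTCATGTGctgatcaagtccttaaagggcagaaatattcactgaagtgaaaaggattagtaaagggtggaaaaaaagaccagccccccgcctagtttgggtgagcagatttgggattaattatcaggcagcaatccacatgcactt
DCT inner start (chr13:94479683-94479932, minus strand): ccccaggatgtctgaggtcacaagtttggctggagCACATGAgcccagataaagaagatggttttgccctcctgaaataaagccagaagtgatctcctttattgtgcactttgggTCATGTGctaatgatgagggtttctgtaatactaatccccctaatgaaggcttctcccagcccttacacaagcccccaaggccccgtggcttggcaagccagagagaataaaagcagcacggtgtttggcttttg
DCT outer start (chr13:94549407-94549656, minus strand): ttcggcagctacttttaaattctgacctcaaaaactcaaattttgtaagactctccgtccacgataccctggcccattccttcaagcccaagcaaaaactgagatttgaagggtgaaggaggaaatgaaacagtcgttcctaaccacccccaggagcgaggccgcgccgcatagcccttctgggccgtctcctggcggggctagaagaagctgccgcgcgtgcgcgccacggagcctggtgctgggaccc
An M-box began 105 bases before the start of TYR and 145 bases before that of TYRP1. The inner start of DCT had 2, beginning 215 and 135 bases before it, and the outer start had none. An M-box was in 3 of the 12 windows of 300 bases listed for the 10 genes, against 2.92% of all 35116 windows. Those 3 windows belong to TYR, TYRP1 and DCT. The motif was searched because it is already known from such genes, so this count is not an independent result.

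TYR had the fewest peaks of the 10 loci. The gene spans 118 kb (chromosome 11, 89177875 to 89295759) and held no peak, and its window held only the 2 flanking peaks, 0.386 per 100 kb (0.0468 to 1.40). Ranked by density, TYR stood at percentile 2.71 of all protein-coding genes. The flanking peaks held 22.4 normalised tags (16.2 to 30.2) 79.8 kb below the gene and 10.4 (6.35 to 16.07) 38.2 kb above it, inside NOX4, which encodes an NADPH oxidase. They were 236 kb apart with no peak between. Gaps at least this long made up 4.78% of all gaps, and 7.09% of protein-coding genes held no peak and had flanking peaks at least this far apart. The local background at these peaks, 0.867 and 0.977 normalised tags, lay below the median of all peaks, and its part in the low number of peaks was not tested. With peaks of at least the median score alone, the flanking peaks of TYR were 1107 kb apart.

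TYRP1 had peaks closer by. The gene spans 16.9 kb (chromosome 9, 12693385 to 12710285), and a peak of 18.7 normalised tags (13.1 to 25.9) lay inside it, 8.97 kb from the start. The gene overlaps the noncoding gene LURAP1L-AS1, which holds the same peak. The flanking peaks held 16.1 (10.9 to 22.9) on the lower side and 13.0 (8.41 to 19.2) on the higher side, 52.6 kb apart. The 3 intervals overlapped, so the strengths of these peaks cannot be ordered. All were below the median strength, and with peaks of at least the median score alone the flanking peaks of TYRP1 were 447 kb apart.

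DCT was the member with a peak at its end, but that end is not the start that carries the M-boxes. The gene spans 113 kb (chromosome 13, 94436811 to 94549406) on the minus strand and has 2 listed starts. The peak of 13.3 normalised tags (8.65 to 19.6) lay 333 bp inside the outer start, where DCT overlaps the noncoding gene LOC124903191. The inner start, the one with M-boxes, was 43.9 kb from the nearest peak. That peak of 15.6 normalised tags (10.5 to 22.3) was the lower flanking peak, 1036 bp past the far end of the gene. A second inside peak held 8.33 (4.76 to 13.5). The higher flanking peak, inside GPR180 and 68.2 kb away, also held 15.6, so that the flanking peaks were of equal strength and 182 kb apart. All 4 lay below the median of all peaks. The protein-coding gene TGDS lay whole between the flanking peaks of DCT.

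Across the 8 members for which the table lists starts, 1 of 12 starts had a peak within 1 kb, against 23.5% of the 22132 listed starts of protein-coding genes. Within 10 kb, 4 of 12 had one, against 52.3%. The median distance from a start to the nearest peak was 20.8 kb for these 12 and 8.99 kb for all. Starts of 1 gene share their surroundings, so the 12 are not independent. The letters AGGGGGC, a core of the CTCF motif, were searched on both strands and were in none of the 12 windows, against 14.4% of all windows. An E-box (CANNTG), which includes every M-box, was in 9 of the 12, against 68.7%. The motif shares are over all 35116 windows, a wider set than the 22132 starts of protein-coding genes used for the peaks.

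Among the melanosome genes, PMEL and MLANA each had a lower flanking peak of at least 62.7 normalised tags, and no peak of the OCA2 window held more than 21.9. PMEL forms the amyloid fibrils on which melanin is laid down. It spans 12.6 kb (chromosome 12, 55954105 to 55966709) and held a peak of 23.7 normalised tags (17.3 to 31.7), 2.09 kb inside the lower end. The flanking peaks held 62.7 (52.0 to 74.9) 13.7 kb below, inside DGKA, and 26.8 (19.98 to 35.2) 29.6 kb above, 378 bp from an end of RAB5B. The lower side was the stronger, without overlap of the intervals. CDK2, a cell cycle kinase gene, shared the 55.9 kb between the flanking peaks.

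MLANA, a small melanosome membrane protein known as a melanoma antigen, had flanking peaks of unequal strength. It spans 19.7 kb (chromosome 9, 5890889 to 5910606) and lies inside the larger gene BRD10. The lower flanking peak held 75.5 normalised tags (63.7 to 88.8) and lay 4.61 kb before the start of MLANA. The higher one held 10.2 (6.19 to 15.8) and lay 66.3 kb away. Both also lay within BRD10. A peak of 7.55 (4.18 to 12.6) inside MLANA was the weakest of the 16 inside peaks.

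OCA2 encodes a melanosome membrane protein involved in setting melanosome pH, and its interval was the longest of the 10. The gene spans 380.3 kb (chromosome 15, 27719008 to 28099315), and its flanking peaks were 409 kb apart, longer than at 91.8% of protein-coding genes. Most of that interval is the gene itself, since the flanking peaks lay only 4.10 and 24.3 kb from its ends. The 6 peaks inside held between 9.37 and 20.8 normalised tags. The peak nearest the start, 13.04 kb inside the gene, held 19.5 (13.8 to 26.8). The flanking peaks held 8.85 (5.16 to 14.2) on the lower side and 21.9 (15.8 to 29.6) on the higher side, inside HERC2, whose introns are known to hold an OCA2 enhancer. The median local background of the 11 peaks of the OCA2 window was 0.952 normalised tags.

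Peaks inside the genes had a lower median strength than the peaks that flanked them. The 16 inside peaks had a median of 12.8 normalised tags and ran from 7.55 to 25.2, and 13 of them were below the median of all peaks. At least the median score was reached by 3 of the 16 (18.8%), against 47.7% of all peaks inside a protein-coding gene. The 20 flanking peaks had a median of 22.2 and ran from 8.85 to 96.3, so the ranges overlap. Over the whole list the medians were 19.0 for 20461 peaks inside a protein-coding gene and 22.1 for 21551 flanking peaks. These whole-list sets share peaks, because a peak inside 1 gene can flank another, so their difference is not directly comparable with that of the 10 genes. The inside peaks of the 10 genes also lay on a lower local background, with a median of 1.08, against 1.58 at their flanking peaks and 1.52 at all inside peaks. Of the 16 inside peaks, 10 come from MITF and OCA2 alone. The difference in strength was not tested, and neither was the part of the background in it.

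**Figure D3:**
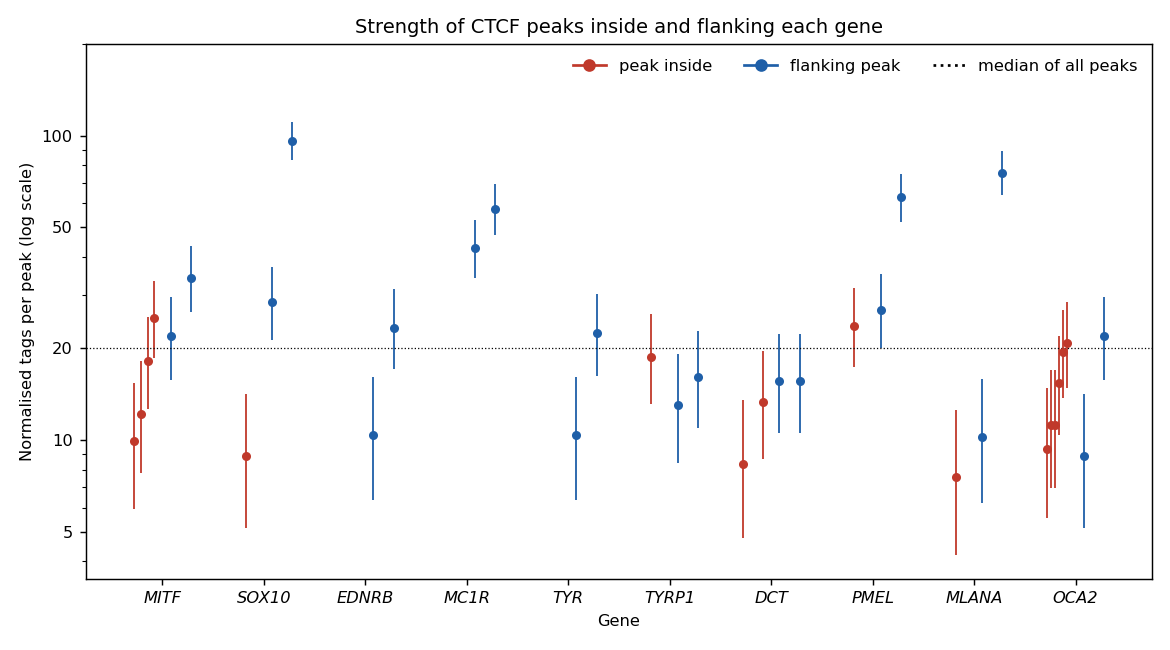
Strength of the inside and flanking CTCF peaks. Points are normalised tags per peak on a log scale with 95% Poisson intervals, by gene, and the dotted line is the median of all peaks. Inside peaks run from 7.55 to 25.2 and flanking peaks from 8.85 to 96.3 normalised tags. EDNRB, MC1R and TYR have no inside peak.

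The intervals of the 2 flanking peaks did not overlap at 6 of the 10 genes, against 51.9% of all protein-coding genes. These were SOX10, EDNRB, TYR, PMEL, MLANA and OCA2, and at MITF, MC1R, TYRP1 and DCT they overlapped. At TYR the limits nearly met, at 16.07 and 16.2 normalised tags. All 10 genes had a flanking peak within 200 kb on both sides, against 91.4%. The distance between flanking peaks had a median of 136 kb, against 102 kb over all protein-coding genes. With the gene's own length taken off, the median was 70.1 kb, against 57.8 kb. The 10 genes ran from percentile 15.3 (MC1R) to percentile 91.8 (OCA2), with 5 of them above the median of all. In increasing order they were MC1R, TYRP1, PMEL, SOX10, MLANA, DCT, TYR, EDNRB, MITF and OCA2.

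**Figure D4:**
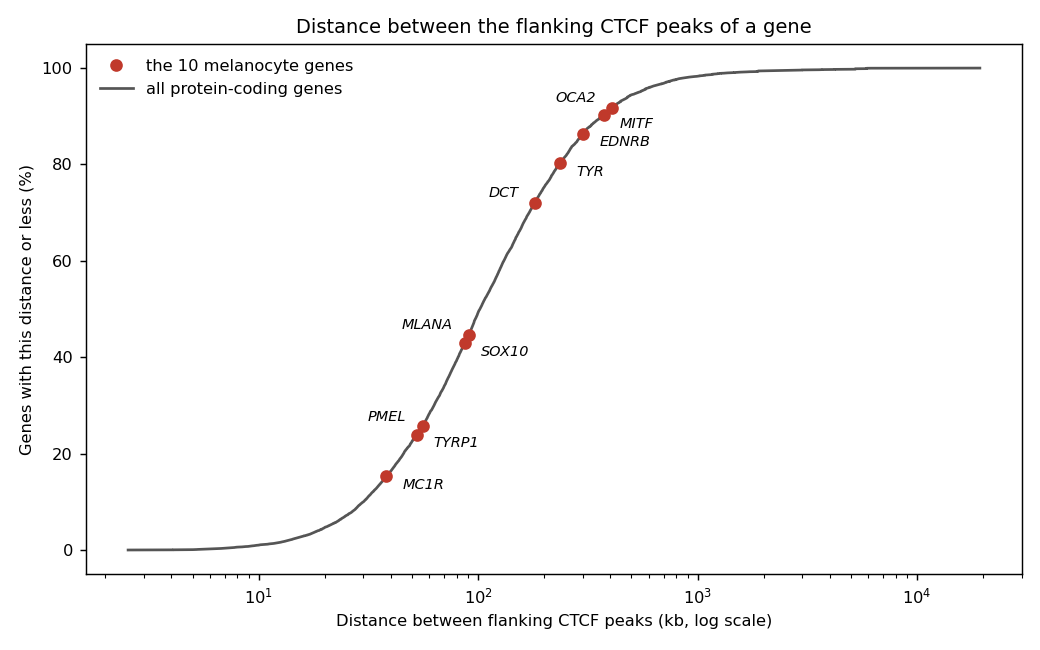
Distance between flanking CTCF peaks. The x axis is the distance in kb on a log scale and the y axis the percentage of genes with that distance or less. Points are the 10 genes and the line is all protein-coding genes. The points spread along the line from 38.2 kb at MC1R to 409 kb at OCA2.

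Peak density ranged from 0.386 per 100 kb at TYR to 4.12 at SOX10, with a median of 2.15, against 2.20 over all protein-coding genes. PMEL had 22 protein-coding genes in its window, itself included, SOX10 14 and MC1R 12. MITF, EDNRB and TYRP1 had 2 each, OCA2 and TYR 3, and DCT and MLANA 5. The 3 loci with at least 12 such genes had 3.64 peaks per 100 kb at PMEL, 4.12 at SOX10 and 2.24 at MC1R. MLANA, with 5, had 3.10. DCT, with 5, had 2.15 and TYRP1, with 2, had 2.16, both close to MC1R. MITF and EDNRB, with 2 each, had 1.59 and 1.46, and OCA2 and TYR, with 3 each, had 1.41 and 0.386. The median local background of the peaks also differed between loci. It ran from 0.922 normalised tags at TYR, 0.952 at OCA2 and 1.05 at MITF up to 1.71 at PMEL and 1.81 at SOX10, and its part in the peak density was not tested. The number of DNA copies at each locus was not measured.

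**Figure D5:**
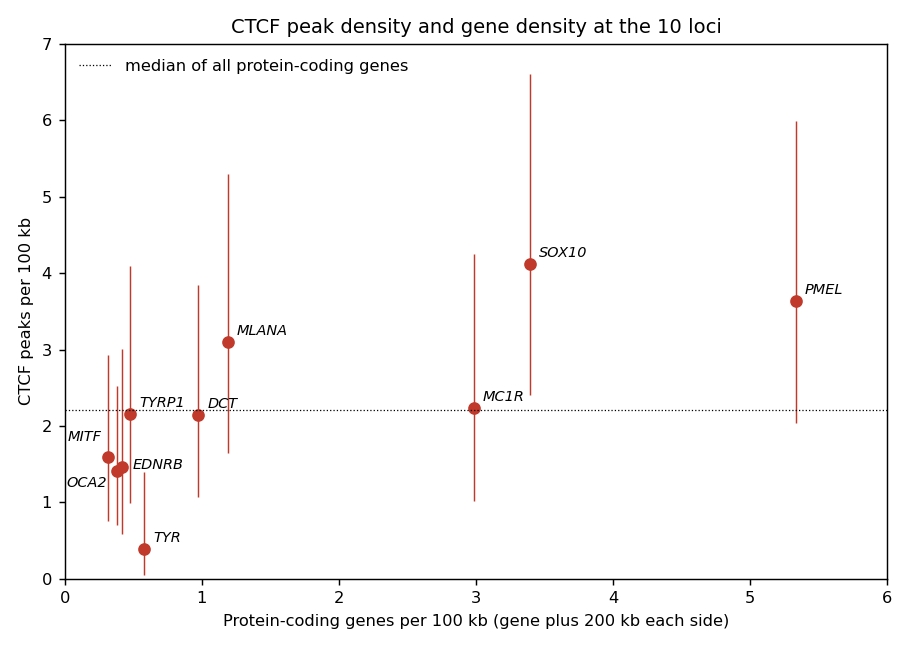
CTCF peaks per 100 kb (y axis) against protein-coding genes per 100 kb (x axis) in each gene plus 200 kb on each side. Bars are 95% Poisson intervals of the peak count and the dotted line is the median over all protein-coding genes, 2.20. TYR lies lowest at 0.386 and SOX10 highest at 4.12.

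Peaks with a score of at least 103 were found at 4 of the 10 loci, against 61% of the windows of all protein-coding genes. Of the 104 peaks, 13 (12.5%) had such a score, as did 10.1% of all 42388 peaks. SOX10 and PMEL had 4 each, MC1R 3 and MLANA 2. MITF, EDNRB, TYR, TYRP1, DCT and OCA2 had none within 200 kb. The strongest peak at each of those 6 held between 21.9 (OCA2) and 42.4 (EDNRB) normalised tags.

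A wider list of 37 other genes of the lineage and of pigment was counted in the same way. An end peak was found at 12 of the 37 (32.4%), against 28.4% of all protein-coding genes. By role it was 3 of 8 regulators, 2 of 7 ligands and receptors, 2 of 7 melanosome membrane proteins and 5 of 15 genes of melanosome assembly and transport. RAB32, a small GTPase that sends enzymes to the melanosome, had the strongest with 42.4 normalised tags (33.7 to 52.7) 344 bp from an end. SNAI2, a neural crest repressor, had 33.3 (25.6 to 42.5). KITLG, the ligand of the KIT receptor, had 23.7 (17.3 to 31.7) 54 bp from an end. ATP7A, the copper transporter that supplies tyrosinase, had 23.2 and HPS6, a subunit of a trafficking complex for lysosome-related organelles, had 22.9. The median distance between flanking peaks of the wider list was 153.5 kb. The difference between the 10 genes and the wider list was not tested.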

How the data were processed

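CTCF ChIP-seq of asynchronous MDA-MB-435 cells, replicate 1, was used as a deposited peak list. The submitters' processing notes name Bowtie2, HOMER and the build hg38. Tool versions were not given in the sources used here. HOMER called peaks in its factor style, per the file headers, at a false discovery rate of 0.001 (15 tags), keeping peaks of 4-fold or more above the 10 kb around them and counting at most 1 tag per position. The header names no control library, so extra DNA copies can raise a peak. The deposited tag signal was scaled by the authors to 10000000 tags. The deposited score, fold over the local region (a ratio), focus ratio (a fraction), clonal fold and p-value are the caller's own. The score ranked peaks, and no statement rests on the last 3.

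Genes came from RefSeq GRCh38.p14 (58419, of which 19821 protein-coding), without patches. Starts, strands and promoter sequences came from a RefSeq promoter table that matched 8 of the 10 genes, all but SOX10 and PMEL. Peaks were placed by their centres, and motifs were searched on both strands. The genes, lists and measures were chosen with earlier results of these data known. All 10 genes are named, with genes between or nearest to their flanking peaks, and the 5 strongest end peaks of the wider list. MICALL1, at the strongest peak near SOX10, was named after its values were seen. Alternatives changed the peak threshold, merging, end window, flank, overlap rule and gene background. The matching of peaks to genes was tested on simulated peaks. Tools were Python (3.11.15), with numpy (2.4.6), pandas (2.3.3), scipy (1.17.1) and, for plots, matplotlib (3.10.9).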

Additional observations from a re-analysis of the deposited data

How the results depend on the processing

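A count was taken as moved beyond 1.5 times its value and a distance at any change, and 15 of 45 alternative values moved. Peaks at or above the median score gave 0 of the 10 genes with an end peak (15.3% of all protein-coding genes), 3 with a peak inside (31.5%), 48 peaks at the loci, 5 of the 37 wider genes with an end peak and a median distance between flanking peaks of 257 kb (169 kb over all protein-coding genes). The distance was then 311 kb at EDNRB, 1107 kb at TYR, 447 kb at TYRP1, 204 kb at DCT, 168 kb at MLANA and 765 kb at OCA2, and unchanged at MITF, SOX10, MC1R and PMEL. An end window of 5 kb gave 5 of the 10 genes (53.2% of all protein-coding genes) and 22 of the 37. Windows of 100 kb and 500 kb on each side gave 59 and 211 peaks. Against all annotated genes the share with an end peak was 16.1% and the median distance 111 kb. That comparison changed only the background, so its values for the 10 genes could not move, though they count among the 45. Without peaks scoring under 17.5, MLANA had no peak inside, and SOX10 no longer had more peaks than PMEL (15 each). These changes follow from fewer peaks or other windows. No paired analysis was possible because only 1 sample was analysed. Depth limits the precision of weak peaks, as a peak of 8.85 normalised tags has an interval of 5.16 to 14.2.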
